A study of Homo sapiens with 12 samples.

Results

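The respiratory chain genes described here are 112 protein-coding genes, chosen by name alone: every gene whose name begins with NDUF, UQCR, ATP5 or COX4 to COX8, the genes SDHA, SDHB, SDHC, SDHD and CYC1, and the 13 protein-coding genes of the mitochondrial genome. They stand among 60612 genes in the table of HCCLM3 and 32507 genes in that of LX2, and 99 of them are nuclear. Their identifiers were found 108 times in the LX2 table, where COX7A1 and ATP5MF-PTCD1 carried no protein-coding transcript type and were kept by identifier. RNA was sequenced from HCCLM3, a line of human hepatoma cells, and from LX2, a line of human hepatic stellate cells, held in a tumor-on-a-chip device. The groups were HCCLM3 with LX2, HCCLM3 alone, LX2 with HCCLM3 and LX2 alone, with 3 libraries each. All carried the genotype label WT, each cell type was 1 line, and the sources used here give no culture time and no means by which the lines were separated for RNA. Nothing in the labels makes the replicates separate cultures, so every p-value measures the spread of these libraries alone, and that spread may be technical.

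Total counts were 65675929 to 68178411 in HCCLM3 with LX2, 68088914 to 77712308 in HCCLM3 alone, 64438991 to 69891842 in LX2 with HCCLM3 and 61836616 to 65314354 in LX2 alone. The summed counts of 5 epithelial markers were 226588 to 286856 in HCCLM3 with LX2 and 427529 to 512699 in HCCLM3 alone, against 9319 to 10431 in LX2 with HCCLM3 and 10344 to 10901 in LX2 alone. The summed counts of 9 stellate cell markers were 71896 to 85289 in LX2 with HCCLM3 and 62314 to 79382 in LX2 alone, against 3170 to 7391 in HCCLM3 with LX2 and 3642 to 4855 in HCCLM3 alone. VIM made up most of that sum: without it the other 8 held 7022 to 7827 counts in LX2 with HCCLM3 and 3736 to 4070 in LX2 alone, against 2367 to 6254 in HCCLM3 with LX2 and 2969 to 3442 in HCCLM3 alone, so the lines overlap. Some defining markers went against the labels: GPC3, a hepatoma antigen, was at 0 in every HCCLM3 library, and the matrix genes COL1A2 and SPARC were at 0 in LX2 alone while they reached 853 and 610 counts in HCCLM3 with LX2. They also reached 502 and 191 counts in HCCLM3 alone. Replicate 3 was the highest library for both genes in each HCCLM3 group, and neither was called in HCCLM3. LUM, another matrix gene, averaged 27.87 CPM in HCCLM3 with LX2 and 37.07 CPM in HCCLM3 alone, against 0.84 CPM in LX2 with HCCLM3 and 3.283 CPM in LX2 alone. EPCAM, an epithelial gene, averaged 0.9984 and 0.5543 CPM in these HCCLM3 groups, against 2.881 and 3.138 CPM in these LX2 groups. The libraries of HCCLM3 with LX2 also held 9088, 6555 and 7730 counts over 9 erythroid genes, against 0, 6 and 4 in HCCLM3 alone, and 12739, 13119 and 12521 counts over 6 hepatocyte genes, against 1274, 1197 and 1170 in HCCLM3 alone. Over 8 granulocyte and macrophage genes they held 6381, 5310 and 6249 counts, against 4290, 4415 and 4365 in HCCLM3 alone. By the same test 8 of the 9 erythroid, 2 of the 6 hepatocyte and 6 of the 8 granulocyte and macrophage genes rose, while the hepatocyte gene TTR was at 0 in HCCLM3 with LX2. The keratins KRT8, KRT18 and KRT19 fell in HCCLM3 with LX2. In LX2 with HCCLM3, KRT19 had 44, 43 and 111 counts, against 0 in each library of LX2 alone, KRT8 rose (log2 fold change 0.533) and KRT18 fell (-0.38). These markers move with the comparisons given here, and their part in the results was not tested. In bulk libraries a change in the share of a cell type and a change in RNA per cell cannot be told apart.

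The respiratory chain passes electrons from NADH (complex I) and succinate (complex II) through ubiquinone, complex III and cytochrome c to complex IV, which reduces oxygen, and the proton gradient so built drives ATP synthase (complex V). Most subunits are encoded in the nucleus and imported. The mitochondrial genome encodes 7 subunits of complex I (MT-ND), 1 of complex III (MT-CYB), 3 of complex IV (MT-CO) and 2 of complex V (MT-ATP), and complex II has none. Liver and liver tumor cells depend on this chain to different degrees, and stellate cells change their energy metabolism when they are activated.

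In co-culture the chain did not move as a block in either line. In HCCLM3 with LX2, 8 of the 106 members tested rose and 10 fell against HCCLM3 alone, while 10.1% of all 18045 genes tested rose and 11.6% fell (21.7% in either direction). The members' shares were 7.547% and 9.434%. Calls are at an adjusted p under 0.05 in edgeR's quasi-likelihood test with Benjamini-Hochberg adjustment over all genes tested. In LX2 with HCCLM3, 15 of 105 members rose (14.29%) and 21 fell (20%) against LX2 alone, beside 15.4% and 16.6% of 19671 genes (31.9% in either direction). The median log2 fold change of the members was 0.085 in HCCLM3 and -0.026 in LX2, against medians of 0.033 and 0.015 over all genes tested. Leaving out the TMM factors, which scale libraries on their trimmed mean ratio, moved the median of all HCCLM3 genes to 0.207. The members called there were then 28 up and 2 down (26.4% and 1.89%), beside 16.5% and 5.76% of all genes. The directions given below for HCCLM3 are thus relative to a library scale that itself moves, and the members' upward share lay below that of all genes on 1 scale and above it on the other.

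**Figure D1:**
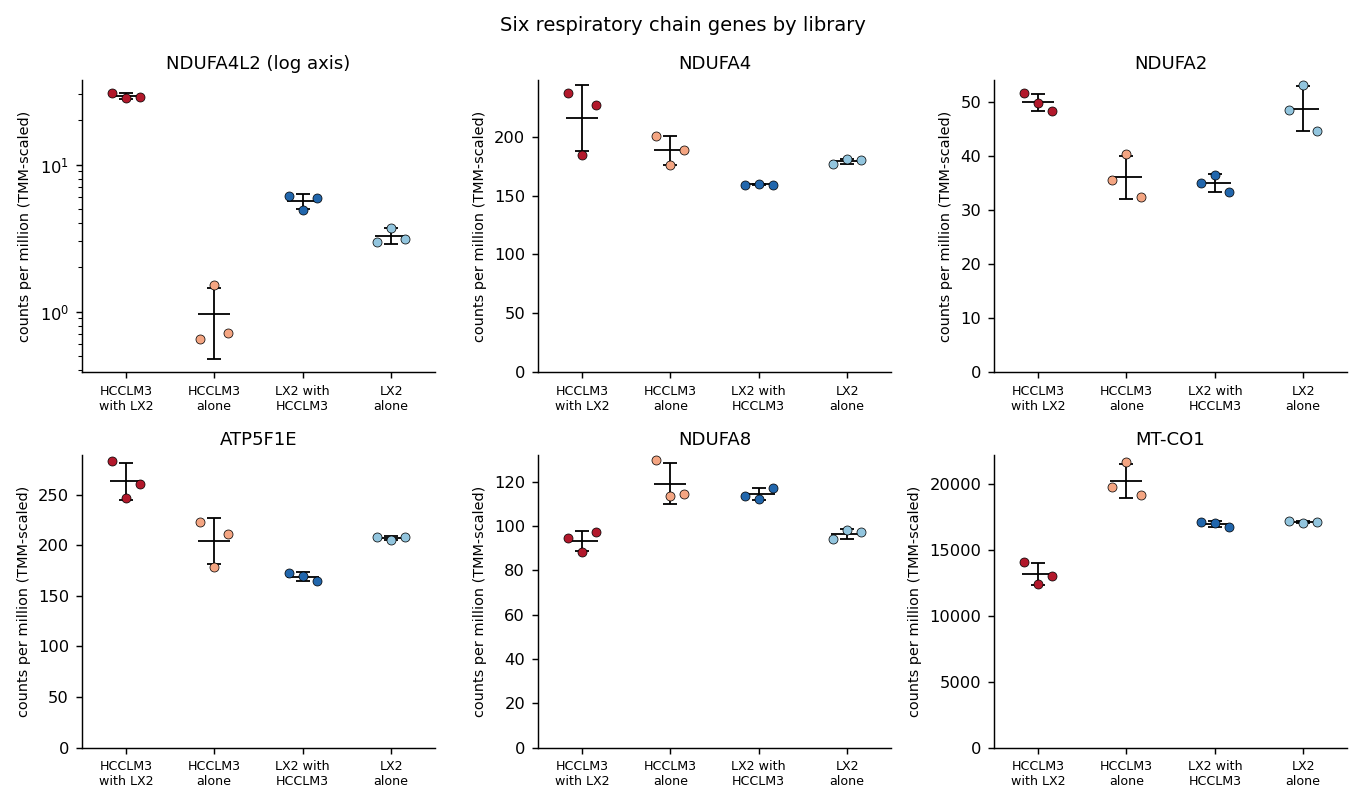
CPM (counts scaled to the size of the library) of selected respiratory chain genes in every library, 3 points per group. The co-cultured group of each line stands left of the line alone. The axis is logarithmic for NDUFA4L2 and linear for the other genes. NDUFA4L2 at 28.16 to 30.67 CPM in HCCLM3 with LX2 stands far above its 0.6532 to 1.513 CPM in HCCLM3 alone, and the other genes shown differ by less.

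The largest log2 fold change of any member within a line was in NDUFA4L2 (ENSG00000185633, chr12:57234903-57240703, minus strand), a paralog of NDUFA4 that is known as a target of the low-oxygen factor HIF-1 and as a brake on oxygen use by the chain. It stood at 30.67, 28.16 and 28.72 CPM (counts scaled to library size) in HCCLM3 with LX2, against 0.6532, 1.513 and 0.7089 CPM in HCCLM3 alone. The groups are far apart, and the log2 fold change was 4.92 ± 0.347 (SE, n = 3 each, adjusted p = 0.000626). In LX2 the same gene had 6.146, 4.91 and 5.916 CPM with HCCLM3, against 2.95, 3.727 and 3.128 CPM alone, a log2 fold change of 0.791 ± 0.148 (adjusted p = 0.00828). It was the 1 nuclear member called up in both lines, and the rise was larger in HCCLM3 by 4.10 on the log2 scale (adjusted p = 3.48e-05, test of the difference over all 12 libraries). Its level per length was 9.226 ± 0.296 FPKM in HCCLM3 with LX2 (SD, n = 3), above both LX2 groups, which had 1.693 ± 0.203 FPKM with HCCLM3 and 0.9548 ± 0.122 FPKM alone in a separately made table. Its partner NDUFA4, now counted as a subunit of complex IV, had 237.3, 184.1 and 226.6 CPM in HCCLM3 with LX2 and 200.2, 176.0 and 188.8 CPM in HCCLM3 alone, and was not called. NDUFA4L2 therefore made up 13.74%, 15.86% and 13.51% of the summed FPKM of the pair in HCCLM3 with LX2, against 0.3713%, 1.019% and 0.4312% in HCCLM3 alone. In LX2 with HCCLM3 NDUFA4 fell, with 159.1, 160.2 and 159.1 CPM against 176.5, 180.7 and 179.8 CPM in LX2 alone (log2 fold change -0.167 ± 0.0269, adjusted p = 0.00455). The pair's FPKM share of NDUFA4L2 was 4.511%, 3.598% and 4.339% in LX2 with HCCLM3 and 1.98%, 2.45% and 2.078% in LX2 alone. NDUFA4L2 shares 33 bases with SHMT2 on the other strand, which was not called in HCCLM3 (log2 fold change 0.083) and rose by 0.442 in LX2 (adjusted p = 0.000412). The promoter of NDUFA4L2 is shown because the gene moved most. It is 300 bases around the RefSeq start (GRCh38.p14, chr12:57240713-57241012, minus strand), with each GCGTG in capitals, 1 form of the core letters that HIF-1 binds; the other form, ACGTG, is not in this window.
NDUFA4L2 promoter: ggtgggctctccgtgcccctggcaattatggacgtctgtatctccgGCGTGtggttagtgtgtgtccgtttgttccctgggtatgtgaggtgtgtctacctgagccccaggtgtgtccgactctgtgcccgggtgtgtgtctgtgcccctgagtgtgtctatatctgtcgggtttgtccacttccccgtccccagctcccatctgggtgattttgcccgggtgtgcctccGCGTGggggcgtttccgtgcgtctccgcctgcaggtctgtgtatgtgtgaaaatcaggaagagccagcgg
The letters GCGTG were in 50.63% of the 79 nuclear members' promoters found in RefSeq and in 44.11% of 15843 protein-coding promoters of the same length, both strands searched, so a match by itself sets no gene apart.

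**Figure D2:**
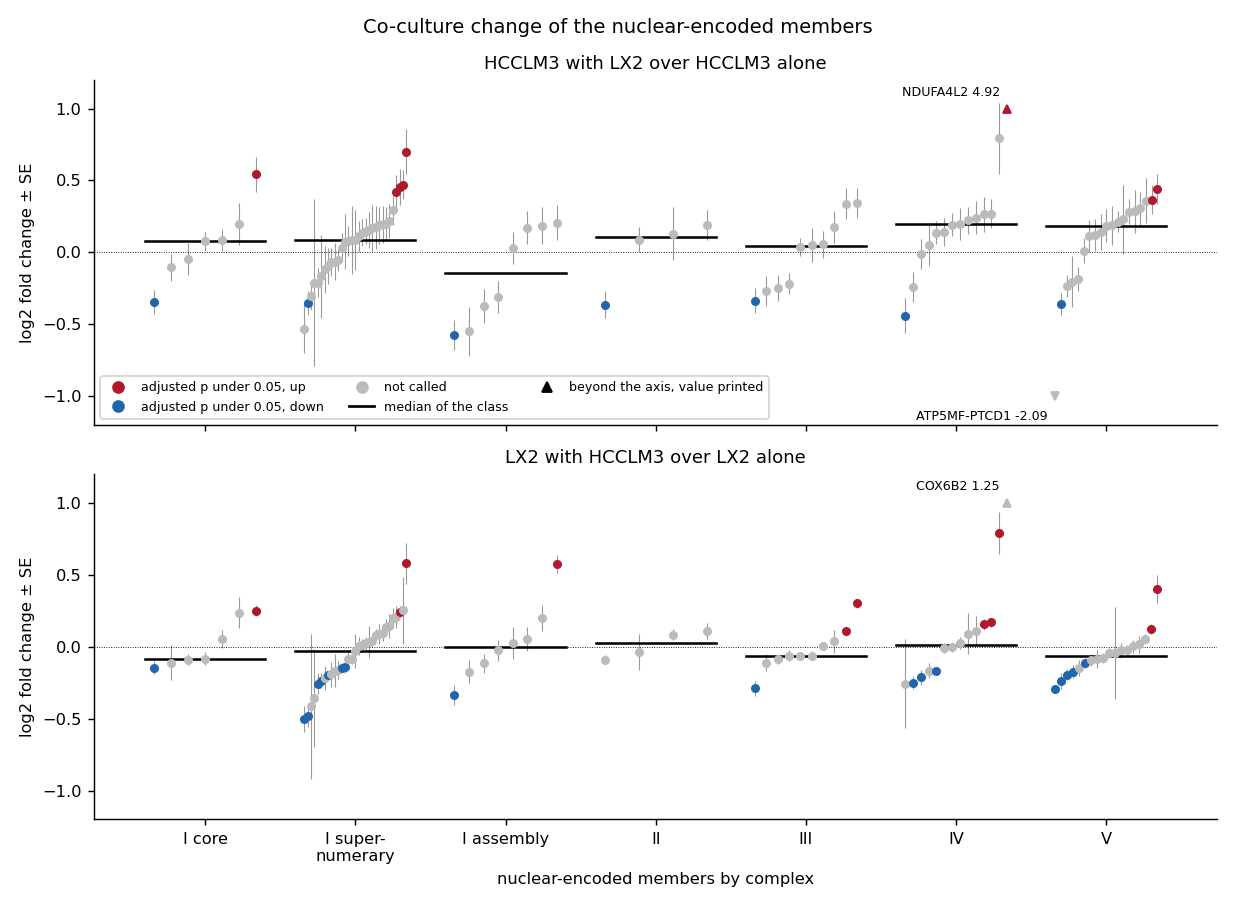
Log2 fold change in co-culture of each nuclear member, by complex, for HCCLM3 with LX2 against HCCLM3 alone (upper panel) and LX2 with HCCLM3 against LX2 alone (lower panel). Red points are called up, blue down and grey not called, the black bar is the class median, and values beyond the axis are printed. Most members lie near 0, and called members of both directions occur in most complexes; with no TMM factors the HCCLM3 calls shift to 28 up and 1 down.

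Among the 7 nuclear core subunits of complex I, which carry the flavin and iron-sulfur clusters, 1 was called up and 1 down in HCCLM3. The rise was in NDUFS7, which holds the last cluster before ubiquinone. It had 65.75, 60.24 and 59.81 CPM in HCCLM3 with LX2, against 49.23, 36.63 and 41.69 CPM in HCCLM3 alone (log2 fold change 0.543, adjusted p = 0.0222). The fall was in NDUFS1, the largest core subunit, with 78.22, 81.45 and 85.94 CPM in HCCLM3 with LX2 against 96.7, 112.0 and 103.1 CPM in HCCLM3 alone (log2 fold change -0.344, adjusted p = 0.028). Neither gene's groups overlap. In LX2 the core subunit NDUFV2 rose, with 91.68, 91.42 and 86.72 CPM in LX2 with HCCLM3, against 76.3, 75.44 and 75.3 CPM in LX2 alone (log2 fold change 0.249, adjusted p = 0.00361).

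Of the 31 supernumerary subunits of complex I, which surround the core, 4 rose and 1 fell in HCCLM3, and 2 rose and 7 fell in LX2. NDUFA2 (ENSG00000131495, chr5:140638740-140647771, minus strand), a small subunit of the matrix arm, was called in opposite directions. It had 51.67, 49.74 and 48.43 CPM in HCCLM3 with LX2, against 35.52, 40.3 and 32.35 CPM in HCCLM3 alone (log2 fold change 0.470 ± 0.102, adjusted p = 0.0204). In LX2 with HCCLM3 it had 35.09, 36.54 and 33.31 CPM, against 48.5, 53.09 and 44.73 CPM in LX2 alone (log2 fold change -0.479 ± 0.0767, adjusted p = 0.00442). The groups do not overlap in either line, and the difference between the changes was 0.917 (adjusted p = 0.000612). NDUFA8 (ENSG00000119421, chr9:122144058-122159779, minus strand), a subunit facing the intermembrane space, did the reverse. It had 94.36, 88.32 and 97.33 CPM in HCCLM3 with LX2, against 129.7, 113.3 and 114.3 CPM in HCCLM3 alone (log2 fold change -0.352 ± 0.0837, adjusted p = 0.027). In LX2 with HCCLM3 it had 113.5, 112.0 and 117.2 CPM, against 94.04, 98.31 and 97.11 CPM in LX2 alone (log2 fold change 0.244 ± 0.0361, adjusted p = 0.00321), and the changes differed by -0.628 (adjusted p = 0.000719).

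The other rises among supernumerary subunits in HCCLM3 were in small subunits of the membrane arm. NDUFA3 had 46.77, 61.23 and 63.93 CPM in HCCLM3 with LX2, against 39.41, 29.99 and 36.4 CPM in HCCLM3 alone (log2 fold change 0.701, adjusted p = 0.0217). NDUFB1 had 42.63, 40.38 and 46.6 CPM in HCCLM3 with LX2 against 33.01, 27.92 and 35.92 CPM in HCCLM3 alone (log2 fold change 0.421, adjusted p = 0.0459). NDUFC1 had 45.49, 55.55 and 52.13 CPM in HCCLM3 with LX2 against 42.15, 32.76 and 36.89 CPM in HCCLM3 alone (log2 fold change 0.454, adjusted p = 0.0426). The groups of all 3 genes were without overlap. In LX2 the falls with the smallest adjusted p included NDUFS5, NDUFA13, NDUFA11 and NDUFB11. NDUFS5, on the intermembrane side, had 194.3, 196.5 and 199.3 CPM in LX2 with HCCLM3, against 224.4, 230.6 and 222.4 CPM in LX2 alone (log2 fold change -0.199, adjusted p = 0.00267). NDUFA13, also known as GRIM-19, had 40.35, 33.61 and 37.63 CPM in LX2 with HCCLM3 against 56.13, 53.73 and 48.11 CPM in LX2 alone (log2 fold change -0.501, adjusted p = 0.00692). NDUFA11 fell by 0.236 and NDUFB11 by 0.145 on the log2 scale. Several of these genes overlap a gene on the other strand, and whether strand was used in counting is not given, so reads of such pairs cannot be told apart. NDUFA2 shares 5974 bases with TMCO6, which rose in HCCLM3 (log2 fold change 1.081) and was not called in LX2 (0.181), and 714 bases with IK, which fell in both lines (-0.603 and -0.223). NDUFC1 shares 1047 bases with NAA15, which fell in HCCLM3 (-1.011).

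The 8 assembly factors named NDUFAF, which help build complex I without being part of it, had 1 fall in HCCLM3. NDUFAF1 (chr15:41387353-41402496), needed for the membrane arm, had 18.84, 16 and 17.51 CPM in HCCLM3 with LX2, against 27.35, 25.14 and 25.43 CPM in HCCLM3 alone (log2 fold change -0.574 ± 0.103, adjusted p = 0.0106). It was not called in LX2 (log2 fold change 0.051), and the changes differed by -0.656 (adjusted p = 0.00618). In LX2 the call upwards was NDUFAF3, which acts on the ubiquinone-binding module, with 45.13, 40.76 and 40.77 CPM in LX2 with HCCLM3, against 28.85, 27.61 and 28.58 CPM in LX2 alone (log2 fold change 0.575 ± 0.0607, adjusted p = 0.000773). NDUFAF8 fell in LX2 (log2 fold change -0.336, adjusted p = 0.0105).

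Complex II, succinate dehydrogenase, is wholly nuclear. SDHA, its flavoprotein, had 211.6, 216.9 and 237.7 CPM in HCCLM3 with LX2, against 308.2, 251.9 and 297.0 CPM in HCCLM3 alone. Every co-cultured library lay below every library alone (log2 fold change -0.363, adjusted p = 0.0383). SDHA was not called in LX2 (0.083), and the difference of -0.479 was called (adjusted p = 0.00948). The iron-sulfur subunit SDHB (0.089 in HCCLM3, 0.111 in LX2) and the membrane anchors SDHC (0.131 and -0.038) and SDHD (0.192 and -0.092) were not called in either line.

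In complex III, 1 of 10 nuclear members fell in HCCLM3, while 2 rose and 1 fell in LX2. CYC1, cytochrome c1, had 307.1, 278.9 and 294.7 CPM in HCCLM3 with LX2, against 408.5, 340.4 and 362.3 CPM in HCCLM3 alone (log2 fold change -0.335, adjusted p = 0.0355), and a log2 fold change of 0.006 in LX2. UQCRC2, a core protein, had 229.6, 233.6 and 222.0 CPM in LX2 with HCCLM3, against 184.2, 185.6 and 186.2 CPM in LX2 alone (log2 fold change 0.301 ± 0.0298, adjusted p = 0.000585). UQCRFS1, the Rieske iron-sulfur protein, rose less in LX2, with 116.3, 116.3 and 115.5 CPM in LX2 with HCCLM3 against 108.2, 107.4 and 107.8 CPM in LX2 alone (log2 fold change 0.106, adjusted p = 0.0336). The small subunit UQCR10 went the other way. It had 44.87, 40.9 and 42.58 CPM in LX2 with HCCLM3, against 54.29, 51.33 and 51.27 CPM in LX2 alone (log2 fold change -0.290 ± 0.0541, adjusted p = 0.0083). In HCCLM3 UQCR10 had 93.52, 96.04 and 94.77 CPM with LX2 and 84.36, 64.84 and 74.73 CPM alone, which was not called (0.345, adjusted p = 0.0574), yet the lines differed by 0.602 (adjusted p = 0.00496). The remaining members ranged in HCCLM3 from -0.269 in UQCRC1 to 0.338 in UQCRQ, and none of them was called in either line.

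In complex IV, 14 of the 19 nuclear members were tested in HCCLM3, with 1 rise, the NDUFA4L2 given above, and 1 fall. COX7C, a small subunit, had 89.8, 69.16 and 81.05 CPM in HCCLM3 with LX2, against 119.1, 97.58 and 109.3 CPM in HCCLM3 alone (log2 fold change -0.441, adjusted p = 0.0426). In LX2, 3 of 14 rose and 3 fell. The rises beside NDUFA4L2 were COX5A (log2 fold change 0.154, adjusted p = 0.0183) and COX6C (0.169, adjusted p = 0.00741), and the falls beside NDUFA4 were COX5B (-0.213, adjusted p = 0.0217) and COX6A1. COX6A1, the form found outside muscle, had 194.2, 210.7 and 211.6 CPM in LX2 with HCCLM3, against 243.4, 236.0 and 253.8 CPM in LX2 alone (log2 fold change -0.250, adjusted p = 0.00786). The subunit COX4I1, which binds ATP, was not called in either line (0.136 and 0.025), and neither was COX8A (-0.013 and -0.002). COX7A2L, which takes part in joining complexes III and IV, had 80.51, 81.62 and 130.8 CPM in HCCLM3 with LX2, against 49.31, 47.31 and 72.55 CPM in HCCLM3 alone. Replicate 3 was the highest library in both groups, and the log2 fold change of 0.792 was not called (adjusted p = 0.0612).

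Tissue-restricted forms of complex IV subunits were mostly without counts. The muscle forms COX6A2 and COX7A1 had 0 counts in HCCLM3, the testis form COX8C and the lung form COX4I2 likewise, and 0 counts allow up to 0.04568 CPM in HCCLM3 with LX2 and 0.04406 CPM in HCCLM3 alone (3 counts in the smallest library of each group, counting error only). COX7A1 had 0, 2 and 5 counts in LX2 with HCCLM3 and 0, 1 and 0 in LX2 alone. COX6B2, a testis form, had 15, 0 and 16 counts in HCCLM3 with LX2 and 0 in each library of HCCLM3 alone. In LX2 it had 0.3227, 0.6066 and 0.4953 CPM with HCCLM3 and 0.278, 0.1308 and 0.1858 CPM alone, which was not called (log2 fold change 1.25, adjusted p = 0.0767). COX7B2, also known from testis, was present in every HCCLM3 library. It had 21.73, 19.62 and 19.36 CPM in HCCLM3 with LX2 and 17.09, 16.03 and 17.26 CPM in HCCLM3 alone, which was not called (log2 fold change 0.269, adjusted p = 0.1). It made up 35.87% to 37.89% of the FPKM of the COX7B pair with LX2 and 35.24% to 38.07% alone. In LX2 with HCCLM3, COX7B2 had 0.06146, 0 and 0 CPM, which is 4 counts in 1 library, and in LX2 alone 0 in all.

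In ATP synthase, 2 of 19 nuclear members rose and 1 fell in HCCLM3, and 2 of 18 rose and 5 fell in LX2. The catalytic subunits moved apart between the lines. ATP5F1A (alpha) had 314.1, 283.7 and 323.2 CPM in HCCLM3 with LX2, against 395.3, 412.3 and 376.1 CPM in HCCLM3 alone (log2 fold change -0.362, adjusted p = 0.0185), and 0.016 in LX2. ATP5F1B (beta) had 805.2, 816.6 and 951.4 CPM in LX2 with HCCLM3, against 674.2, 573.3 and 702.9 CPM in LX2 alone (log2 fold change 0.400 ± 0.0947, adjusted p = 0.0206). In HCCLM3 ATP5F1B had 1055, 1007 and 1106 CPM with LX2 and 1321, 1244 and 1157 CPM alone. That change was not called (-0.233, adjusted p = 0.0668), and the lines differed by -0.664 (adjusted p = 0.00424). ATP5F1E (epsilon; ENSG00000124172, chr20:59025475-59032335, minus strand) rose in HCCLM3, with 282.7, 246.1 and 260.2 CPM with LX2, against 222.5, 178.8 and 210.9 CPM alone (log2 fold change 0.366 ± 0.102, adjusted p = 0.044). It fell in LX2, with 172.9, 169.2 and 164.3 CPM with HCCLM3, against 208.0, 205.0 and 208.0 CPM alone (log2 fold change -0.294 ± 0.0306, adjusted p = 0.000721), and the difference was 0.629 (adjusted p = 0.0026). ATP5ME (subunit e), which helps to pair the enzyme into dimers, had 87.02, 76.77 and 84.62 CPM in HCCLM3 with LX2, against 62.71, 53.99 and 66.45 CPM in HCCLM3 alone (log2 fold change 0.440, adjusted p = 0.025). ATP5IF1, which blocks reverse ATP hydrolysis by the enzyme, had 100.6, 107.9 and 103.1 CPM in LX2 with HCCLM3, against 115.6, 120.4 and 120.5 CPM in LX2 alone (log2 fold change -0.194, adjusted p = 0.0123). It was not called in HCCLM3 (0.188, adjusted p = 0.37). ATP5F1C (gamma) rose in LX2 (0.121, adjusted p = 0.0474), while ATP5MC2, a gene of the rotating ring, and ATP5MG (subunit g) fell there (-0.239 and -0.175).

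The nuclear calls of the lines are set side by side here as counts. NDUFA2 and ATP5F1E were the 2 genes up in HCCLM3 and down in LX2, NDUFA8 the 1 gene down in HCCLM3 and up in LX2, and 0 genes fell in both. A further 5 rose and 6 fell by call in HCCLM3 and were not called in LX2, 9 rose and 16 fell in LX2 and were not called in HCCLM3, and 51 were called in neither. Calls were not crossed in this way over all genes, so these counts do not set the chain apart. Over all genes tested 10.1% rose and 11.6% fell in HCCLM3, and 15.4% rose and 16.6% fell in LX2. A call in 1 line does not show a difference between lines, so the difference itself was tested. It was called up for 13 and down for 11 of 94 nuclear members, beside 9.39% up and 11.3% down over 21959 genes, and with no TMM factors for 30 and 3, beside 13.6% and 7.23%. Leaving out single libraries or changing the scaling, filter or test removed most HCCLM3 calls: 1 of 8 rises (NDUFA4L2) and 2 of 10 falls (NDUFAF1 and MT-CO1) were called every time. In LX2 10 of 15 rises and 13 of 21 falls were, and for the difference 8 of 13 rises, NDUFA2 and ATP5F1E among them, and 7 of 16 falls, NDUFA8 among them. The HCCLM3 calls behind the opposite directions were weak: of 6 single-library omissions, the call was kept in 1 for NDUFA2, in 1 for NDUFA8 and in 0 for ATP5F1E.

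Members were also described by transcript length, with no test between length classes. All genes here means all genes tested with a protein-coding transcript, 13405 in HCCLM3 and 13843 in LX2. In HCCLM3 the 58 nuclear members under 800 bases had a median log2 fold change of 0.14 with 5 up and 1 down (12.06% up and 12.06% down over all genes of that length). The 21 of middle length had 0.073 with 2 up and 4 down (10.96% and 14.13%), and the 14 of at least 1600 bases -0.217 with 1 up and 2 down (11.2% and 16.02%). In LX2 the 57 short members had a median of -0.082 with 4 up and 11 down, the 21 of middle length 0.051 with 6 up and 3 down, and the 14 long ones -0.026 with 1 up and 4 down. All genes of these lengths gave 15.17% up and 21.83% down, 16.27% and 18.97%, and 18.82% and 22.73%. Spearman's rho with transcript length was -0.2202 over 93 members in HCCLM3 and 0.2385 over 92 in LX2, against -0.01809 and 0.01022 over all genes with such a transcript. These are correlations across genes of the same libraries, which are not independent.

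Letters for factors known to drive respiratory genes were searched in all promoters found. Those of 3 members that differed between the lines are shown as examples that hold a match, which not every such member does. Capitals mark the letters of NRF1 (GCGCA, any base, GCGC) and of YY1 (AAGATGGC), found on either strand; in NDUFA8 a pair of NRF1 matches overlap. Each is 300 bases around the RefSeq start in GRCh38.p14, from chr9:122159730-122160029 (minus strand), chr22:29767119-29767418 (plus strand) and chr19:54102605-54102904 (plus strand).
NDUFA8 promoter: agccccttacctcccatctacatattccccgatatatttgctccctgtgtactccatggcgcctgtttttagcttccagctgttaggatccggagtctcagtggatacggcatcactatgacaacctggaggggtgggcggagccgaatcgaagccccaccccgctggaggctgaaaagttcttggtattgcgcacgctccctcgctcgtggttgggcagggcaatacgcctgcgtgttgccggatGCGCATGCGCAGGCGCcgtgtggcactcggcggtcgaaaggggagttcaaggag
UQCR10 promoter: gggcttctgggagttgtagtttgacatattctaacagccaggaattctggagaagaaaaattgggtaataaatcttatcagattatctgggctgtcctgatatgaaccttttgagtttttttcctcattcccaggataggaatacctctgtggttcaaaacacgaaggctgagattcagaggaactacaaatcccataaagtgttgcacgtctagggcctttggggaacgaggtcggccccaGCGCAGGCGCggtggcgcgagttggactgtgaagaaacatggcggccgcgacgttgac
NDUFA3 promoter: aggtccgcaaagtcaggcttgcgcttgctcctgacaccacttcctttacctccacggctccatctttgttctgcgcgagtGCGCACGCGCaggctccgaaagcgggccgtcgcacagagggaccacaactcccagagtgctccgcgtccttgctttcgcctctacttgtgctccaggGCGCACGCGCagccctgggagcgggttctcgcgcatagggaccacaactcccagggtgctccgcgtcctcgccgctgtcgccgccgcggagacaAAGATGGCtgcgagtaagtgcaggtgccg
Of the 79 nuclear members matched, 18 held the NRF1 letters (22.78%, against 8.578% of 15843 protein-coding promoters), 11 held those of YY1 (13.92% against 3.907%) and 21 held the ETS letters CCGGAAG (26.58% against 14.23%). NDUFA8 and UQCR10 both hold NRF1 letters and moved in opposite directions in LX2. NDUFA2, ATP5F1E, NDUFAF1 and NDUFB1 also differed between the lines and held none of the NRF1, ETS and YY1 letters. SDHA and ATP5ME differed too and held those of NRF1. The examples shown therefore do not tie a difference between the lines to these letters. A match is a description of letters and not a binding site.

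The mitochondrially encoded genes, read from a pair of long transcripts that are cut into single RNAs, behaved differently in the lines. In LX2, 4 of the 7 MT-ND genes rose, the neighbours MT-ND4L, MT-ND4, MT-ND5 and MT-ND6, while MT-CO2, MT-CO3 and MT-CYB fell. Mitochondrial tRNA genes, which are not members, were called in both directions in LX2. Rises lay also outside that stretch, as in MT-TF (0.456) and MT-TM (0.819), and MT-TL1 (-0.201) and MT-TC (-0.173) fell. In HCCLM3, MT-CO1, MT-ATP6 and MT-ND3 fell and 0 rose by edgeR's quasi-likelihood test, with 1 rise at an unadjusted p under 0.05 and 1 by DESeq2. The median log2 fold change of the 13 was -0.186 in HCCLM3 and -0.008 in LX2. Without TMM factors these medians became -0.013 in HCCLM3 and 0.022 in LX2, where the sign flips. Relative to the median of all genes they were -0.219 in HCCLM3 and -0.023 in LX2, and without TMM factors -0.22 and -0.023.

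**Figure D3:**
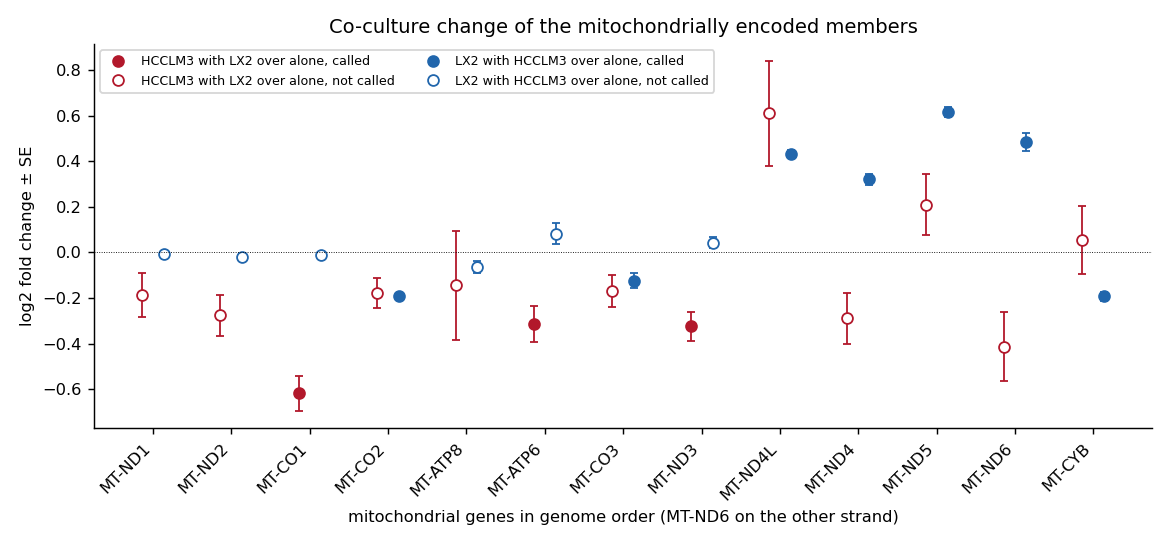
Log2 fold change ± SE of the 13 mitochondrial genes in genome order, for HCCLM3 with LX2 against HCCLM3 alone and LX2 with HCCLM3 against LX2 alone, filled points being called. Among these 13 genes the rises in LX2 are at MT-ND4L, MT-ND4, MT-ND5 and MT-ND6 (0.430, 0.320, 0.614 and 0.484), and in HCCLM3 MT-CO1 lies lowest at -0.618.

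MT-CO1 (chrM:5904-7445), the catalytic subunit of complex IV, had 14070, 12410 and 13040 CPM in HCCLM3 with LX2, against 19780, 21710 and 19200 CPM in HCCLM3 alone. The groups are well apart (log2 fold change -0.618 ± 0.0769, adjusted p = 0.0031), and the fall was called in every omission and setting. In LX2 it had 17150, 17060 and 16730 CPM with HCCLM3 and 17180, 17040 and 17090 CPM alone, which was not called (-0.011, adjusted p = 0.527). The changes differed by -0.640 (adjusted p = 0.000244). MT-CO2, which takes electrons from cytochrome c, had 6629, 6708 and 6587 CPM in LX2 with HCCLM3, against 7655, 7589 and 7528 CPM in LX2 alone (log2 fold change -0.193 ± 0.0117, adjusted p = 7.7e-05). In HCCLM3 MT-CO2 had 8231, 7629 and 7692 CPM with LX2 and 9336, 8419 and 8889 CPM alone, with no overlap and no call (-0.178, adjusted p = 0.103). MT-CO3 fell in LX2 (-0.124, adjusted p = 0.0344) and was not called in HCCLM3 (-0.168).

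Of the MT-ND genes, which form the proton-pumping membrane arm of complex I, MT-ND5 rose most in LX2. It had 2870, 2860 and 2928 CPM in LX2 with HCCLM3, against 1862, 1938 and 1856 CPM in LX2 alone (log2 fold change 0.614 ± 0.0214, adjusted p = 8.11e-06). MT-ND4L had 2203, 2196 and 2140 CPM in LX2 with HCCLM3 against 1613, 1609 and 1632 CPM in LX2 alone (0.430 ± 0.0173, adjusted p = 1.41e-05). MT-ND4 had 10250, 10180 and 9686 CPM in LX2 with HCCLM3 against 8145, 8021 and 7958 CPM in LX2 alone (0.320 ± 0.0233, adjusted p = 0.000158). The replicates of each group lie close together, with gaps between groups many times their spread. MT-ND6, the 1 protein gene read from the other strand, had 832.3, 828.0 and 762.1 CPM in LX2 with HCCLM3, against 584.3, 586.5 and 561.0 CPM in LX2 alone (0.484 ± 0.0405, adjusted p = 0.000288). Whether strand was used in counting is not given, so the counts of MT-ND6 may hold reads of the long transcript opposite to it. MT-ND1 (-0.008), MT-ND2 (-0.020) and MT-ND3 (0.042) were not called in LX2. In HCCLM3 MT-ND3 fell, with 1168, 1066 and 1112 CPM with LX2, against 1449, 1370 and 1369 CPM alone (-0.324, adjusted p = 0.0151), while MT-ND1 (-0.186) and MT-ND2 (-0.275) were not called.

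The genes that rose in LX2 gave wider values in HCCLM3. MT-ND4L had 1783, 1824 and 1814 CPM in HCCLM3 with LX2, against 909.7, 1682 and 963.1 CPM in HCCLM3 alone. Replicate 2 of HCCLM3 alone stands apart from the other libraries of its group, and the log2 fold change of 0.609 ± 0.228 was not called (adjusted p = 0.104). Without that library it was 0.944 (adjusted p = 0.00343). MT-ND5 had 2151, 1996 and 2073 CPM in HCCLM3 with LX2 against 1526, 2189 and 1667 CPM in HCCLM3 alone, with 0.209 (adjusted p = 0.314) and, without the same library, 0.373 (adjusted p = 0.0274). With any other HCCLM3 library left out, 0 of the 13 mitochondrial genes were called up. The omission given here is of the library that stood against a rise, so its p-values do not show one. MT-ND4 had 12160, 9157 and 11420 CPM in HCCLM3 with LX2 against 13150, 14170 and 12670 CPM in HCCLM3 alone (-0.289, adjusted p = 0.115), and MT-ND6 1150, 746.2 and 1033 CPM in HCCLM3 with LX2 against 1322, 1274 and 1308 CPM in HCCLM3 alone (-0.414, adjusted p = 0.0969). Replicate 2 of HCCLM3 with LX2 was the lowest library for both. That library also stood apart in mitochondrial tRNA genes. It had 1008 counts on MT-TR, against 133 and 227 in the rest of its group, and 1024 on MT-TH, against 160 and 198. The lines differed by -0.640 for MT-ND4 (adjusted p = 0.00453) and by -0.929 for MT-ND6 (adjusted p = 0.00338). MT-ND4L and MT-ND4 are known to be made as 1 RNA, and they share 7 bases, chrM:10760-10766, shown in capitals with their surroundings (chrM:10748-10778), so reads there count for either.
MT-ND4L and MT-ND4 overlap: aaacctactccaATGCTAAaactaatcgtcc
How the counting shared such reads is not stated.

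MT-CYB, cytochrome b of complex III, had 3621, 3509 and 3515 CPM in LX2 with HCCLM3, against 4123, 4002 and 4042 CPM in LX2 alone (-0.193 ± 0.0184, adjusted p = 0.000495). In HCCLM3 it had 5226, 3483 and 4871 CPM with LX2 and 4278, 4614 and 4188 CPM alone, with the lowest value again in replicate 2 with LX2 (0.054, adjusted p = 0.828). MT-ATP6, the proton channel subunit of ATP synthase, had 1237, 1163 and 1044 CPM in HCCLM3 with LX2, against 1424, 1469 and 1391 CPM in HCCLM3 alone (-0.315, adjusted p = 0.0309), and was not called in LX2 (0.082). A nuclear copy, MTATP6P1, was given 89.2% to 127.7% as many counts as MT-ATP6, so the level of MT-ATP6 is uncertain. MT-ATP8 had 5071, 2808 and 4711 CPM in HCCLM3 with LX2 against 4057, 5722 and 4140 CPM in HCCLM3 alone, and the groups overlap (-0.145), and -0.065 in LX2. MT-ATP8 and MT-ATP6 share 46 bases, chrM:8527-8572, in capitals here (chrM:8515-8584).
MT-ATP8 and MT-ATP6 overlap: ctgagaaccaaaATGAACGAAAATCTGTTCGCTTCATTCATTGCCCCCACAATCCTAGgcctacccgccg
MTCO1P12, a nuclear copy of MT-CO1, held 2.3% to 4.8% as many counts as MT-CO1 and fell in HCCLM3 too (-0.503).

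**Figure D4:**
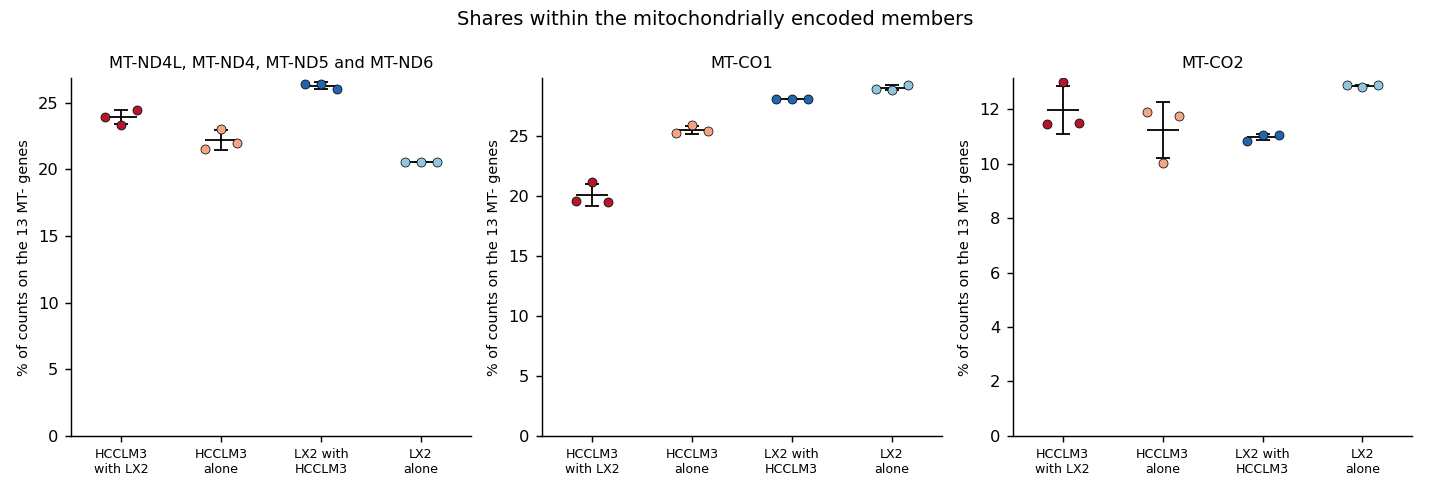
Shares of the counts on the 13 mitochondrial genes by library and group, with co-culture left of the line alone. The panels show the block from MT-ND4L to MT-ND6, MT-CO1 and MT-CO2. The block from MT-ND4L to MT-ND6 takes 26.01% to 26.45% in LX2 with HCCLM3 and 20.53% to 20.56% in LX2 alone.

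As a share of all counts the 13 mitochondrial genes took 7.544%, 6.325% and 7.092% in HCCLM3 with LX2, against 7.258%, 7.928% and 7.201% in HCCLM3 alone, and the groups overlap (two-sided exact permutation test p = 0.4, adjusted over 6 such comparisons 0.4). The nuclear members took 1.275%, 1.197% and 1.28% with LX2, against 1.151%, 1.014% and 1.111% alone. All 3 co-cultured libraries lay higher, at the smallest p that 3 against 3 libraries allow (exact p = 0.1, adjusted 0.15). On this scale of library totals the summed share moved by 0.197 (log2) in HCCLM3. The median log2 fold change on the same scale was 0.289 over the nuclear members and 0.207 over all genes tested. A summed share is weighted by the members with most counts, so it is not the same measure as these medians. In LX2 the mitochondrial genes took 6.114% ± 0.0762 (SD, n = 3) with HCCLM3 and 5.839% ± 0.0596 alone, and the nuclear members 1.013% ± 0.0107 and 0.9896% ± 0.00587 (exact p = 0.1 and adjusted 0.15 for each). The ratio of nuclear to mitochondrial counts averaged 0.1796 in HCCLM3 with LX2 against 0.1469 in HCCLM3 alone (exact p = 0.1, adjusted 0.15), and 0.1657 in LX2 with HCCLM3 against 0.1695 in LX2 alone (exact p = 0.2, adjusted 0.24). None of the 6 could pass 0.05 with 3 libraries a group.

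Within the 13, which removes the library scale, the block from MT-ND4L to MT-ND6 took 26.42%, 26.45% and 26.01% in LX2 with HCCLM3, against 20.53%, 20.56% and 20.56% in LX2 alone. In HCCLM3 it took 23.98%, 23.37% and 24.45% with LX2, against 21.57%, 23.03% and 21.98% alone. There the shares of MT-ND4L and MT-ND5 lay above those of HCCLM3 alone, while those of MT-ND4 and MT-ND6 overlapped between the groups, whereas all 4 lay above in LX2. MT-CO1 took 19.57%, 21.13% and 19.51% in HCCLM3 with LX2, against 25.23%, 25.88% and 25.41% in HCCLM3 alone. In LX2 MT-CO1 averaged 28.06% ± 0.0287 with HCCLM3 and 29% ± 0.234 alone (SD, n = 3). These are shares of 1 sum, so a rise in 1 gene lowers the others.

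**Figure D5:**
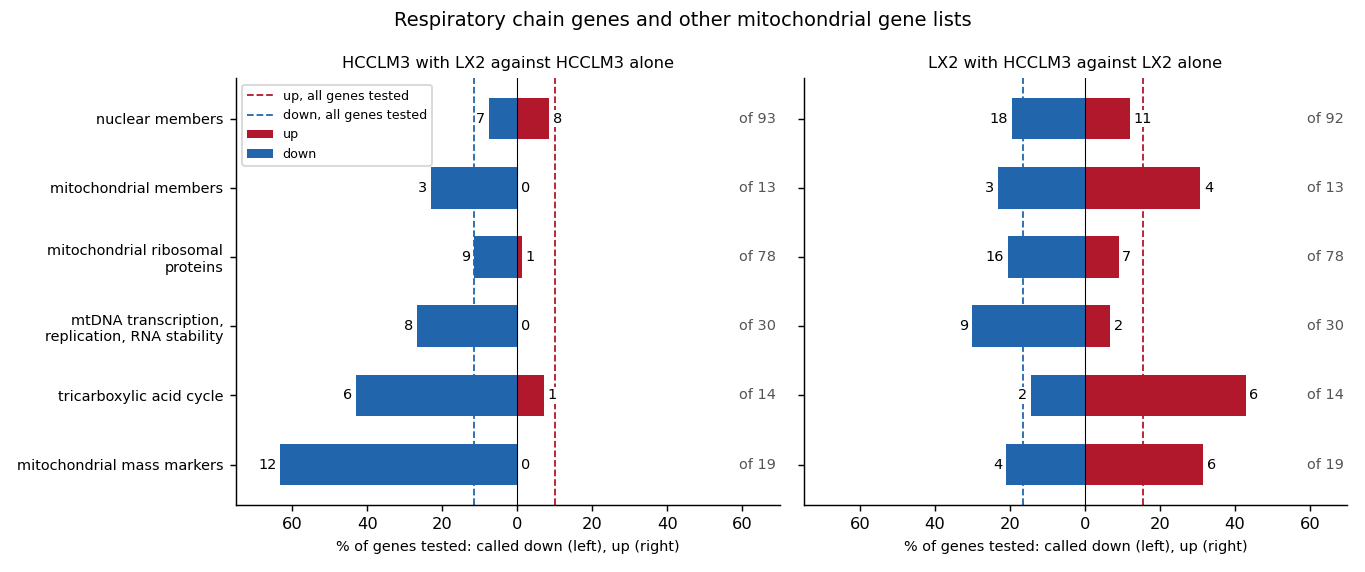
Percent of tested genes called up (red, right) and down (blue, left) in co-culture for the members and 4 other mitochondrial lists, for HCCLM3 with LX2 against HCCLM3 alone (left panel) and LX2 with HCCLM3 against LX2 alone (right panel); dashed lines are the percent over all genes tested, and figures beside the bars are counts. In HCCLM3 mitochondrial mass markers have 12 of 19 called down and nuclear members 7 of 93; without TMM factors these become 6 of 19 and 1 of 93.

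Other lists of mitochondrial genes set the members beside the rest of the organelle. In HCCLM3, of 19 mass markers (import, chaperone and outer membrane genes), 12 fell, with a median log2 fold change of -0.470, among them TOMM70, an import receptor (-0.707), and the chaperones HSPD1 (-0.814) and HSPA9 (-0.574). Of 14 genes of the tricarboxylic acid cycle, which supplies NADH and succinate, 6 fell and 1 rose, with OGDH at -0.845, DLD at -0.701 and SUCLA2 at -0.972. Of 30 genes of mitochondrial transcription, replication and RNA stability, 8 fell. LRPPRC, which binds and stabilises mitochondrial mRNAs, fell to 15.04 FPKM in HCCLM3 with LX2, against 22.92 FPKM in HCCLM3 alone (-0.774, adjusted p = 0.00101). FASTKD2, a mitochondrial RNA-binding protein, fell by 0.78 and POLRMT, the mitochondrial RNA polymerase, fell by 0.775 on the log2 scale. Of 78 mitochondrial ribosomal proteins, 9 fell and 1 rose (MRPS10 -0.651, MRPS35 -0.492, MRPL15 -0.371), with a median of -0.144. Without TMM factors the counts up and down became 2 and 6 for mass markers, 2 and 4 for the cycle, 0 and 6 for transcription and RNA stability, and 4 and 2 for ribosomal proteins, whose majority direction flips. With each library left out in turn, mass markers had 7 to 12 down and the cycle 4 to 6. Ribosomal proteins had 2 to 13 down, the highest without replicate 2 of HCCLM3 alone and the lowest without replicate 3 of HCCLM3 with LX2.

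In LX2, 6 of 14 genes of the tricarboxylic acid cycle rose and 2 fell, among them IDH2 (1.028), FH (0.381) and SUCLA2 (-0.501). Mass markers were mixed, with 6 up and 4 down (TOMM20 0.362, TIMM44 0.55, HSPE1 -0.474). Genes of mitochondrial transcription and RNA stability had 2 up and 9 down, with TRMT10C, part of the RNase P that cuts the long transcripts, at -0.508, FASTKD5, needed where no tRNA marks the junction, at -0.453, and ELAC2, which cuts behind the tRNAs, at -0.347. Ribosomal proteins had 7 up and 16 down (MRPS6 -2.214, MRPS10 0.545, MRPL16 -0.452). With each library left out in turn they had 3 to 6 up and 9 to 11 down, and the cycle 4 to 6 up.

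Partners of the chain were called in both directions. Of 29 assembly factors of complex IV, 3 rose and 3 fell in HCCLM3 (COA5 0.622, COA1 0.318, COA7 -0.391), and 7 rose and 6 fell in LX2 (COX19 0.447, COX20 -0.762, COA7 -0.268). Of 15 assembly factors of complexes II, III and V, 0 were called in HCCLM3 by edgeR or DESeq2 (2 up and 1 down at an unadjusted p under 0.05), and in LX2 1 rose (SDHAF4 0.746) and 1 fell (SDHAF2 -0.705). Of 9 complex I assembly factors outside the NDUF names, COA1 was the 1 called in HCCLM3, and 0 were called in LX2 by edgeR or DESeq2 (1 at an unadjusted p under 0.05). Of 20 genes of electron carriers, 2 rose and 3 fell in HCCLM3, with cytochrome c (CYCS) at -0.315, the sulfide oxidase SQOR at -0.686 and PRODH, of proline breakdown, at -0.771. In LX2 8 rose and 2 fell, with SQOR at -1.262, COQ8A at -0.499 and COQ9 at 0.326. With each library left out in turn, electron carriers had 5 to 6 up in LX2, and complex IV assembly factors 1 to 4 up and 0 to 3 down in HCCLM3. Of 7 genes of ADP and phosphate exchange and uncoupling tested, 0 were called in either line by edgeR or DESeq2, with 1 up and 3 down at an unadjusted p under 0.05 in HCCLM3 and 0 in LX2.

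Among 14 transcription regulators of the chain tested in HCCLM3, 2 rose (SP1 0.577, GABPB2 0.381). In LX2 4 of 15 rose and 1 fell, with PPARGC1A, a coactivator of mitochondrial genes, at 0.642, EPAS1 (HIF-2 alpha) at 0.222 and HIF1A at -0.603. Of 8 low-oxygen genes that act on respiration, 2 rose and 1 fell in HCCLM3. The rises were NDUFA4L2 and BNIP3L (0.622), a receptor for removal of mitochondria, and the fall was LONP1, a matrix protease (-0.381). In LX2 4 rose, among them NDUFA4L2, BNIP3L (0.331) and PDK1, which restrains entry of pyruvate (0.823). Counts over the lists are read beside the shares of all genes given above, and no list was tested as a set.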

How the data were processed

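RNA-seq libraries were grouped by the labels of cell line and treatment, 3 per group. Sequencing was paired-end after selection for polyadenylated RNA, per the labels' protocols, which mention adipose tissue although neither line is adipose. The submitters' processing notes list HISAT2 2.0, StringTie 1.3.0 and Bowtie 0.12.2 without their roles, and a mouse build, mm8. The identifiers are human, and the tables' coordinates were taken as GRCh38. The sources used here do not give the use of strand in counting.

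Each gene has a raw count and an FPKM value per library, as the authors deposited them in 1 table per line (per the file headers). The scaling of FPKM across tables is not stated, so levels set across lines are descriptions. Counts were tested with edgeR 4.0.16 (R 4.3.3): filterByExpr (minimum count 10, minimum total 15), TMM factors, the quasi-likelihood test per line, and the difference of changes (HCCLM3 minus LX2) over all 12 libraries, with Benjamini-Hochberg adjustment over all genes tested and a threshold of 0.05, two-sided. The standard error was taken as the size of the log2 fold change over the root of the F statistic. CPM are counts scaled to the library total times its TMM factor, which was 1.049 to 1.077 in HCCLM3 with LX2, 0.9259 to 0.953 in HCCLM3 alone, 1.01 to 1.011 in LX2 with HCCLM3 and 0.9889 to 0.9913 in LX2 alone. A gene with 0 counts may stand at up to 0.04851 CPM in the smallest library (3 counts, counting error only).

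Alternatives were DESeq2 1.42.0, library totals without TMM factors, no filter on low counts, limma 3.58.1 on log2 FPKM from the deposited values plus 1 or 0.1 (mean FPKM of at least 1), a replicate block, leaving out the mitochondrial genome, and each library left out in turn. Merging nuclear copies and the share within the mitochondrial genes were chosen after seeing the data. The HIF-1 letters GCGTG and ACGTG were not in the planned motif search, which held those of NRF1, ETS and YY1, and were added later. The fits were tested on simulated counts. Shares were compared by exact permutation tests (SciPy 1.17.1, Python 3.11.15, NumPy 2.4.6, pandas 2.3.3; figures with Matplotlib 3.10.9). Promoters are from RefSeq (GRCh38.p14), of which 79 of 99 nuclear members matched.

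The members were picked by name and not by their values. They and the lists were chosen with earlier results of these data known. Genes named were all 13 mitochondrial genes, SDHA to SDHD, CYC1 and the UQCR genes, up to 6 called members with the smallest adjusted p per class and line, tissue and low-oxygen forms with their partners, ATP5IF1, up to 10 members called for the difference, and up to 3 called genes of each list per line. 1 member is not reported here by name.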

Additional observations from a re-analysis of the deposited data

Results flagged for a closer look

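These members were picked out because their co-culture change differed between the lines by edgeR's quasi-likelihood test of the difference itself (HCCLM3 minus LX2, log2 scale, adjusted over all genes tested). Of 107 members 13 differed upward and 16 downward (12.15% and 14.95%), beside 9.39% and 11.3% of the 21959 genes tested. With library totals the counts were 30 and 7, beside 13.6% and 7.23% of all genes. Only 8 of the 13 and 7 of the 16 were called in every omission and setting. No cause was tested.

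In complex I the difference was 0.917 for NDUFA2, 0.835 for NDUFA3, 0.550 for NDUFB1, 0.476 for NDUFB8, 0.458 for NDUFS7 and 0.351 for NDUFA11. It was -0.292 for NDUFS1, -0.628 for NDUFA8, -0.656 for NDUFAF1 and -0.435 for NDUFAF3. NDUFB8 was not called within either line. Of 12 single-library omissions, the call was kept in 1 each for NDUFS7, NDUFA11 and NDUFAF3, in 3 for NDUFS1 and in 4 for NDUFB8. In complex II the difference was -0.479 for SDHA, and it was not called with library totals.

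In complex III the small subunits UQCRQ (0.391) and UQCR10 (0.602) lay above 0, and CYC1 (-0.373), UQCRC2 (-0.296) and UQCRFS1 (-0.385) below it. In complex IV the difference was 4.100 for NDUFA4L2, 0.372 for COX5B, 0.360 for COX7B and -0.430 for COX5A. In ATP synthase it was 0.629 for ATP5F1E and 0.559 for ATP5ME, against -0.410 for ATP5F1A and -0.664 for ATP5F1B, the catalytic pair. The calls of CYC1, UQCRC2, UQCRFS1, COX5A and ATP5F1A were lost with library totals and with both limma fits. A replicate block also removed that of COX5A. Of 12 single-library omissions, the call was kept in 2 for UQCRQ and in 5 for COX7B.

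Of the mitochondrial genes, MT-ND3 (-0.397), MT-ND4 (-0.640), MT-ND6 (-0.929), MT-CO1 (-0.640) and MT-ATP6 (-0.428) differed, all with the lower change in HCCLM3. The call of MT-ATP6 was lost with library totals.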

How the results depend on the processing

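Depth limits COX7B2 in LX2 (4 counts in 1 library) and the forms with 0 counts. In HCCLM3 the main counts of members were 8 up and 10 down. They became 13 up with DESeq2, 28 up and 2 down with library totals, 5 up and 6 down with no filter on low counts, and 32 up and 2 down with limma on log2(FPKM + 1) and also on log2(FPKM + 0.1). The shares of all genes moved too: 10.1% up and 11.6% down at first, 13.6% and 14.1% with DESeq2, 16.5% and 5.76% with library totals, 4.59% and 5.95% with no filter, and 20.6% and 9.67% with limma on log2(FPKM + 1). For the difference between lines (13 up and 16 down), the counts up were 20 with DESeq2, 30 with library totals, 8 with no filter, 38 with limma on log2(FPKM + 1), 36 on log2(FPKM + 0.1) and 21 with the replicate block. Its counts down were 7 with library totals and 9 with either limma fit. All genes then gave 13.6% up and 7.23% down with library totals and 23.0% and 14.4% with limma on log2(FPKM + 1), against 9.39% and 11.3%. In LX2 (15 up and 21 down) no such setting moved a count by over 1.5 times, though library totals gave nuclear members 13 up and 13 down, against 11 and 18. The difference reversed for COX7B2, 0.384 by limma on log2(FPKM + 1) against -3.14, and for MT-CO2, 0.152 there against -0.017 (adjusted p = 0.0326 by limma); the cause was not tested. Library totals moved the median of all genes to 0.207 in HCCLM3, 0.044 in LX2 and 0.177 for the difference. With single libraries left out, which leaves fewer samples, HCCLM3 gave 1918 to 2928 called genes (3924 with all), 1 to 5 members up and 3 to 9 down. LX2 gave 4934 to 5209 genes (6281 with all), 10 to 13 up and 14 to 17 down. The difference gave 3580 to 4438 genes (4546 with all), 8 to 20 up and 13 to 20 down. On the log2 scale the share of nuclear members moved by 0.145 to 0.236 in HCCLM3 and 0.025 to 0.038 in LX2, that of the mitochondrial genes by -0.155 to -0.028 and 0.058 to 0.076, and their ratio by 0.198 to 0.353 and -0.052 to -0.021. Libraries with the same replicate number deviated together at most weakly. In HCCLM3 r was 0.0171, 0.0452 and 0.0225, with each library correlating best with its own number, and in LX2 it was -0.039, 0.0115 and -0.0408. Such values cannot show whether replicate numbers mark pairs, and the labels do not say. A replicate block added 5 named calls and removed 2 in HCCLM3, removed 6 in LX2, and added 6 and removed 4 for the difference. It gave 4 up and 8 down for mitochondrial ribosomal proteins in LX2, against 7 and 16.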
